A study of Mus musculus with 6 samples.

Results

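The genes described here encode the proteasome, its immune form and its assembly and activator proteins, in CD8+ T cells taken from mouse spleens. They are the protein-coding genes whose symbol begins with Psma, Psmb, Psmc, Psmd, Psme, Psmf or Psmg and a digit, at a mean of at least 1 FPKM over all samples. FPKM counts fragments relative to the length of the transcript and to the size of the library, so levels of different genes can be set side by side. Of 28773 genes in the files, 50 protein-coding genes carried such a symbol and 48 reached that level. The level left out Psma8, a testis form of an alpha subunit, at a mean of 0.112 FPKM, and Psmb11, the thymus-specific catalytic subunit, at 0.0050 FPKM. The members closest above it were Psmc3ip at 1.56, Psmg3 at 1.58 and Psmd9 at 1.59 FPKM. The 3 immunoproteasome genes Psmb8, Psmb9 and Psmb10 and the 2 PA28 genes Psme1 and Psme2 were kept apart from the other 43.

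All the mice had borne a tumor that was treated by microwave ablation (MWA), in which microwaves from an inserted antenna heat and destroy the tissue in place. The MWA+PBS group then received the vehicle and the MWA+2DG group received 2-deoxy-D-glucose, a glucose analogue that inhibits glycolysis. Splenic CD8+ T cells were purified with a magnetic kit on day 35, and each group held 3 samples, numbered 1 to 3 for MWA+PBS and 4 to 6 for MWA+2DG. The labels give no strain, age or genotype for these mice and do not say whether a sample was 1 animal or a pool, so the p-values measure the spread between these samples, which may be technical in part. The files hold no counts and the depth of the libraries is unknown.

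The proteasome is the protease that degrades proteins tagged with ubiquitin. Its 20S core is a barrel of alpha rings, which gate the entrance, and beta rings, which hold the cutting sites, and a 19S cap binds, unfolds and feeds in the substrate. Interferon induces replacement beta subunits that form the immunoproteasome and induces the PA28 activator, which opens the barrel without ubiquitin, and lymphocytes carry much immunoproteasome even at rest. Many of the peptides shown to CD8+ T cells on MHC class I molecules are cut by these particles.

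Interferon induces these 5 genes through factors that bind near their starts, and the promoter stretches of Psmb8, Psmb9 and Psme1 are printed because each held a match to a motif that was searched on both strands. They run from 250 bases before to 30 bases after the RefSeq start (assembly GRCm38.p6), and the capitals mark the match. In Psmb8 it was TTCNNNGAA, the gamma-activated site. In Psme1 it was GAAANNGAA, the core of the interferon-stimulated response element, read as TTCNNTTTC on the printed strand. In Psmb9 it was GAANNTTC, the heat shock element pair. The 3 stretches read:
Psmb8, chr17:34197945-34198224, plus strand: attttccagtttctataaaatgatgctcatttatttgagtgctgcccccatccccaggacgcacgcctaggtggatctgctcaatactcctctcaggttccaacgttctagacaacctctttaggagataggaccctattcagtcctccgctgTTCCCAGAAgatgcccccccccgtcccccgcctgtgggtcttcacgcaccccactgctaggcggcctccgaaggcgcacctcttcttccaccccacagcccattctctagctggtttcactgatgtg
Psmb9, chr17:34187301-34187580, minus strand: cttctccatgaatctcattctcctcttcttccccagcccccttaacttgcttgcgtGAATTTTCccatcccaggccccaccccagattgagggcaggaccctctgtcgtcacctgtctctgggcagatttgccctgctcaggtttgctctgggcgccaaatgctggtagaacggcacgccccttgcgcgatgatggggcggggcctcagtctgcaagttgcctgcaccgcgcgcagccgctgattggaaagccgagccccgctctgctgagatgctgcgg
Psme1, chr14:55578244-55578523, plus strand: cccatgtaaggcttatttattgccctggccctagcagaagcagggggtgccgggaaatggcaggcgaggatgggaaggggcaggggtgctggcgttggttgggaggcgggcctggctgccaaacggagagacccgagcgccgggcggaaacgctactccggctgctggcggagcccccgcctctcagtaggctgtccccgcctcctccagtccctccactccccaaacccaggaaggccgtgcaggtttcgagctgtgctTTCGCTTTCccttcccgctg
The Psmb10 and Psme2 windows held no match to these motifs or to TGACNNNGC, the core of the antioxidant response element. A match is a description of letters and not a binding site. Among the 41 members with a window, GAAANNGAA occurred in 7 (17.1%), against 8.56% of all 32851 promoter windows, and TTCNNNGAA in 3 (7.32%), against 8.3%. The antioxidant core occurred in 6 (14.6%), against 12.4%, and the heat shock pair in 3 (7.32%), against 7.86%. Members were counted as genes with a match in any of their windows and all promoters as single windows, so the shares are not strictly comparable. Psmb9 and Tap1, the transporter that carries peptides into the endoplasmic reticulum, start 226 bases apart on opposite strands, so most of the printed Psmb9 stretch also lies before Tap1. Psmb8 starts 10865 bases from Psmb9, and Psme1 and Psme2 start 12527 bases apart.

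The comparison of the 2 groups asks how proteasome transcripts of splenic CD8+ T cells stood when glycolysis had been inhibited after the ablation. All 5 immunoproteasome and PA28 genes were higher in the MWA+2DG group, with log2 fold changes from 0.26 to 0.46 on the scale as deposited, and Psmb8, Psmb10 and Psme1 were on the lower side when samples were scaled to T lineage genes (-0.031, -0.12 and -0.16). Neither the constitutive catalytic subunits nor the alpha ring nor the 19S ATPases held a gene that passed the test. Among the other 43 members, 2 assembly chaperones rose and 3 subunits of the 19S cap fell, where 22.3% of all tested genes were called higher and 17.1% lower. Scaled to T lineage genes, none of the 43 was called higher and 40 were called lower, beside 3.87% and 68.7% of all tested genes. Every test below is limma on log2(FPKM + 1) over 12444 genes at a mean of at least 1 FPKM, with p-values adjusted over all of them by the Benjamini-Hochberg method, and fold changes on that scale understate the change of low genes.

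Psmb8 encodes the inducible subunit at the chymotrypsin-like site of the core. It measured 40.2, 41.5 and 35.6 FPKM in MWA+PBS replicates 1 to 3 and 53.6, 49.1 and 52.2 FPKM in MWA+2DG replicates 4 to 6. The groups did not overlap, and the log2 fold change was 0.39 ± 0.07 (SE, n = 3 per group, by limma, adjusted p = 0.0038). Psmb9, the inducible subunit at the caspase-like site, measured 17.2, 16.7 and 15.0 FPKM in MWA+PBS and 23.8, 21.3 and 23.3 FPKM in MWA+2DG. Its 3 MWA+2DG samples all stood above the 3 MWA+PBS samples, at a log2 fold change of 0.46 ± 0.07 (SE by limma, adjusted p = 0.00196). A Psmb9 transcript in GENCODE overlaps Tap1 on the other strand, and no source used here says whether strand was used when reads were assigned. Psmb10, the inducible subunit at the trypsin-like site, measured 31.8, 30.9 and 28.9 FPKM in MWA+PBS and 37.4, 37.2 and 39.3 FPKM in MWA+2DG. These groups were also apart, with a log2 fold change of 0.31 ± 0.06 (SE by limma, adjusted p = 0.00434). By level in the MWA+PBS group the order was Psmb8, Psmb10 and Psmb9, and no value of one gene reached into the range of the next.

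Psme1 and Psme2 encode the alpha and beta subunits of PA28, the ring that caps the barrel in place of the 19S particle. Psme1 was the most abundant of the 48 genes, at 87.0, 85.0 and 81.3 FPKM in MWA+PBS and 107, 95.6 and 102 FPKM in MWA+2DG. Its groups did not overlap, and its log2 fold change of 0.26 ± 0.06 (SE by limma, adjusted p = 0.0108) was the smallest of the 5. Psme2 measured 39.0, 45.7 and 29.8 FPKM in MWA+PBS and 57.8, 47.0 and 51.0 FPKM in MWA+2DG. MWA+PBS replicate 3 was low and replicate 2 came close to the lowest MWA+2DG sample, so that the groups were apart by a narrow margin at a log2 fold change of 0.45 ± 0.15 (SE by limma, adjusted p = 0.0464). The Psme2 call held in 1 of the 6 fits that each left out 1 sample, the fit without MWA+PBS replicate 2, and its adjusted p ranged from 0.0142 to 0.137 over them. Calls for Psmb8, Psmb9, Psmb10 and Psme1 held in all 6 of those fits.

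Psme2b is an intronless coding copy of Psme2, 99.4% identical to it over 794 bases, so reads of the pair are hard to assign. It was listed at 61.4, 62.2 and 70.6 FPKM in MWA+PBS and 76.8, 74.2 and 67.4 FPKM in MWA+2DG, and these groups overlapped (log2 fold change 0.17 ± 0.08, SE by limma, adjusted p = 0.116). Psme2b was called higher without MWA+PBS replicate 3 (0.23, limma adjusted p = 0.0482) and with sample weights (0.20, adjusted p = 0.0404). It was called lower when scaled to T lineage genes (-0.26, limma adjusted p = 0.0301). MWA+PBS replicate 3 was the lowest of its group for Psme2 and the highest for Psme2b. Summed, the pair measured 100, 108 and 100 FPKM in MWA+PBS and 135, 121 and 118 FPKM in MWA+2DG. The spread between MWA+PBS samples was smaller in the sum, and the log2 fold change was 0.27 ± 0.07 (SE by limma, adjusted p = 0.0137), close to the 0.26 of Psme1.

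**Figure D1:**
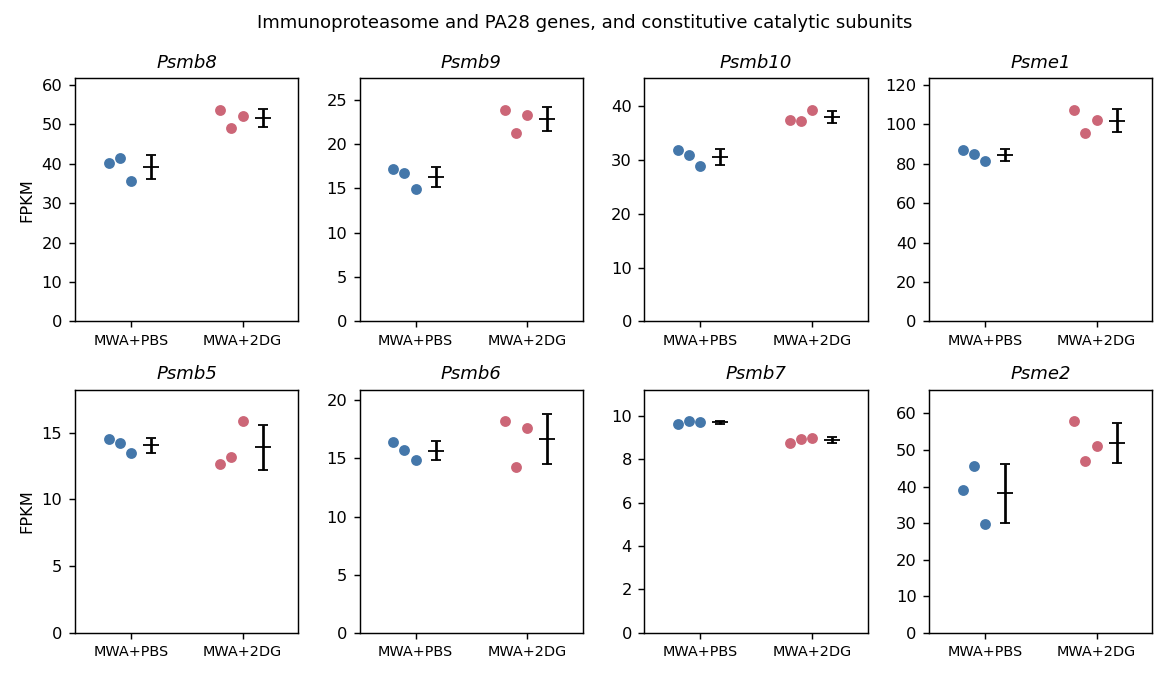
FPKM in each sample (points, left to right in order of replicate number) with the mean ± SD beside them for Psmb8, Psmb9, Psmb10, Psme1 and Psme2 and for the constitutive catalytic subunits Psmb5, Psmb6 and Psmb7. The MWA+2DG points of the 5 induced genes all lie above the MWA+PBS points, by the narrowest margin for Psme2, on the scale as deposited (scaled to T lineage genes, Psmb8, Psmb10 and Psme1 turned to -0.031, -0.12 and -0.16 on the log2 scale), while those of Psmb5 and Psmb6 overlap them.

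The constitutive catalytic subunits, which the induced ones replace, did not pass the test. Psmb5, at the chymotrypsin-like site, measured 14.5, 14.2 and 13.4 FPKM in MWA+PBS and 12.7, 13.2 and 15.8 FPKM in MWA+2DG, with overlapping groups and a log2 fold change of -0.02 ± 0.09 (SE by limma, adjusted p = 0.866). Psmb6, at the caspase-like site, measured 16.4, 15.7 and 14.9 FPKM against 18.2, 14.2 and 17.6 FPKM, and its groups overlapped too (log2 fold change 0.08 ± 0.09, SE by limma, adjusted p = 0.542). Its log2 fold change ran from 0.016 to 0.18 over the fits that each left out 1 sample. Psmb7, at the trypsin-like site, measured 9.63, 9.75 and 9.73 FPKM against 8.76, 8.94 and 8.99 FPKM. All 3 MWA+2DG values of Psmb7 were below the MWA+PBS values, by a log2 difference of -0.11 ± 0.05 that did not pass the test (SE by limma, adjusted p = 0.12). The 95% intervals of these 3 genes together reached from -0.23 to 0.30, so smaller differences cannot be told from none. Scaled to T lineage genes, all 3 were called lower, at -0.45 for Psmb5, -0.35 for Psmb6 and -0.54 for Psmb7 (limma adjusted p = 0.0018, 0.00411 and 0.000181). That scaling lowers every log2 fold change by 0.43, and 68.7% of all tested genes were called lower under it. A processed pseudogene, Gm3375, 98.9% identical to Psmb5 over 796 bases, was listed at a mean of 12.9 FPKM, 92.1% of Psmb5, and the sum of the pair changed by -0.10 ± 0.07 (SE by limma, adjusted p = 0.315).

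The ratio of each induced subunit to its counterpart within a sample does not depend on how samples are scaled. Psmb8 over Psmb5 was 2.77, 2.92 and 2.65 in MWA+PBS and 4.23, 3.73 and 3.30 in MWA+2DG. The induced gene made up 73.5% ± 0.9 of the pair's FPKM in the MWA+PBS samples and 78.8% ± 2.1 in the MWA+2DG samples (SD, n = 3 each). Psmb9 over Psmb6 was 1.04, 1.06 and 1.01 against 1.31, 1.49 and 1.32, a share of 50.9% ± 0.7 against 57.8% ± 1.8 (SD). At this site the MWA+PBS samples held nearly equal levels of both transcripts, unlike the other 2 sites. Psmb10 over Psmb7 was 3.30, 3.17 and 2.97 against 4.27, 4.16 and 4.37, a share of 75.9% ± 1.0 against 81.0% ± 0.4 (SD). The log2 ratios were higher by 0.43, 0.40 and 0.44 in MWA+2DG, and the groups did not overlap at any of the 3 sites. Each exact two-sided permutation test gave p = 0.1, the smallest that 3 samples against 3 allow, and 0.133 after adjustment over the 4 ratios tested. Psme2 over Psme1, the fourth, was 0.448, 0.538 and 0.366 against 0.539, 0.492 and 0.498 and overlapped between groups (exact permutation p = 0.3). With near-identical copies summed, a choice made after the data were seen, the level of Psmb8 over Psmb5 was 1.41 ± 0.03 in the MWA+PBS samples and 2.00 ± 0.13 in the MWA+2DG samples, a share of 58.4% ± 0.5 against 66.6% ± 1.5 (SD). The difference in the log2 ratio was then 0.51 and that for Psme2 over Psme1 was 0.01.

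**Figure D2:**
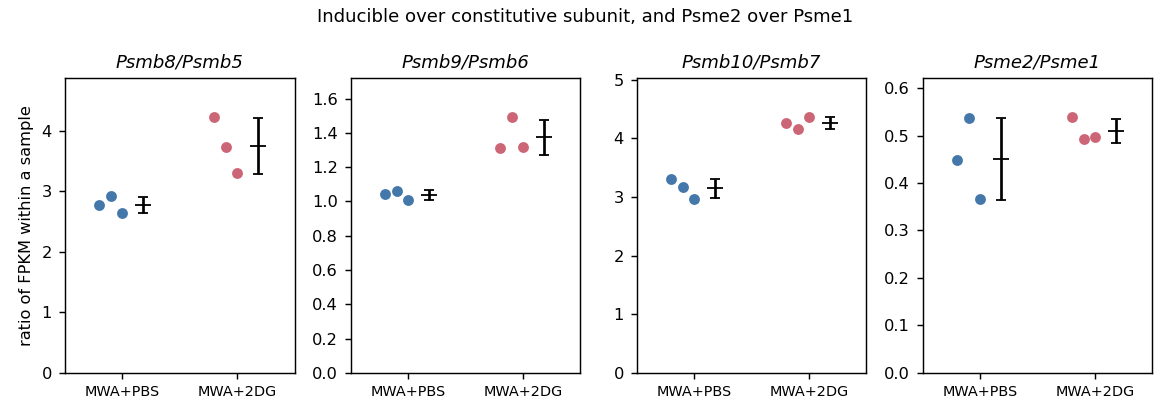
Ratio of FPKM within each sample (points, left to right in order of replicate number) with mean ± SD beside them, for the induced over the constitutive subunit at each catalytic site and for Psme2 over Psme1. The MWA+2DG ratios of Psmb8 to Psmb5, Psmb9 to Psmb6 and Psmb10 to Psmb7 all lie above the MWA+PBS ratios, and those of Psme2 to Psme1 overlap.

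The calls for all 5 genes, and the direction of Psmb8, Psmb10 and Psme1, depended on what the samples were scaled to. The 18 T lineage markers, such as Cd3e and Lck, were themselves higher in the MWA+2DG group by 0.43 on average on the log2 scale, and 16 of them passed the test. Cd8a, the coreceptor alpha chain, rose from 232 ± 7 to 366 ± 9 FPKM and Cd8b1, its partner, from 329 ± 8 to 484 ± 27 FPKM (SD, n = 3 each, limma adjusted p = 8.94e-05 and 0.000443). Cd3e, a chain of the T cell receptor complex, rose from 97.3 ± 8.0 to 127 ± 13 FPKM, though it stood at -0.048 when scaled to the T lineage genes, and Cd4 was low in both groups, at 2.75 ± 0.16 and 1.66 ± 0.11 FPKM (SD). With every sample scaled to the T lineage genes, the log2 difference was -0.031 for Psmb8, 0.036 for Psmb9, -0.12 for Psmb10, -0.16 for Psme1 and 0.025 for Psme2. Under that scaling Psme1 passed the test as lower (limma adjusted p = 0.0176), none of the other 4 passed it, and 40 of the other 43 members were called lower, where 68.7% of all tested genes were called lower and 3.87% higher. On the scale as deposited the median log2 fold change of the 5 genes was 0.39, beside 0.43 for the T lineage markers. In bulk RNA, fewer cells of a type and less RNA per cell cannot be told apart.

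Markers of other cells also moved between the groups. The summed level of the 12 neutrophil markers ran from 68.2 to 92.6 FPKM in MWA+PBS and from 1602 to 1783 FPKM in MWA+2DG, with 11 higher, and the 10 B cell markers ran from 10.6 to 11.9 and from 58.4 to 63.6 FPKM, with all 9 tested higher. The 12 macrophage markers fell from between 736 and 798 to between 114 and 120 FPKM, and the 9 erythroid markers from between 294 and 350 to between 67.2 and 85.3 FPKM, with every one of both lists lower. Of the less abundant types, 2 of 3 plasma cell markers tested, 2 of 2 dendritic cell markers and 1 of 1 natural killer cell markers were lower, at summed levels of 78.1 to 86.2, 9.03 to 10.9 and 8.89 to 9.65 FPKM in MWA+PBS and 38.6 to 41.1, 4 to 5.02 and 6.96 to 7.36 FPKM in MWA+2DG. No marker was at 0 in every sample, and Fcer2a, Tnfrsf17, Klra4 and Klra9 were at 0 in at least 1. All 17 heat shock genes tested fell, from sums of 2758 to 2948 to sums of 1185 to 1250 FPKM, as did 13 of 15 proliferation genes, from 311 to 329 to 233 to 240 FPKM. The part of these cells and states in the proteasome values was not tested.

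Over all 48 members, limma called 7 higher and 3 lower at an adjusted p under 0.05. That is 20.8% of the members, where 39.4% of all tested genes were called, 22.3% higher and 17.1% lower. Leaving out any 1 sample gave 4 to 8 higher and at most 1 lower, so the count of 3 lower rested on all 6 samples. The T lineage scaling gave 0 higher and 41 lower, where 3.87% of all tested genes were called higher and 68.7% lower. On the scale as deposited, the 43 members outside the 5 stood further below the 39.4% of all tested genes, with 2 higher and 3 lower, or 11.6%. By the rule the study used, an unadjusted p under 0.05 and a log2 fold change beyond 0.25, 7 members were higher and 1 lower, against 21.6% and 16.6% of all genes. The groups did not overlap for 9 members that were higher and 5 that were lower, against 30.2% and 21.9% of all genes. Median log2 fold changes were 0.39 for the 5 genes, 0.01 for the other 43 and 0.05 for all genes tested. Outside the 5, the members that did not pass the test lay between -0.20 and 0.20.

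**Figure D3:**
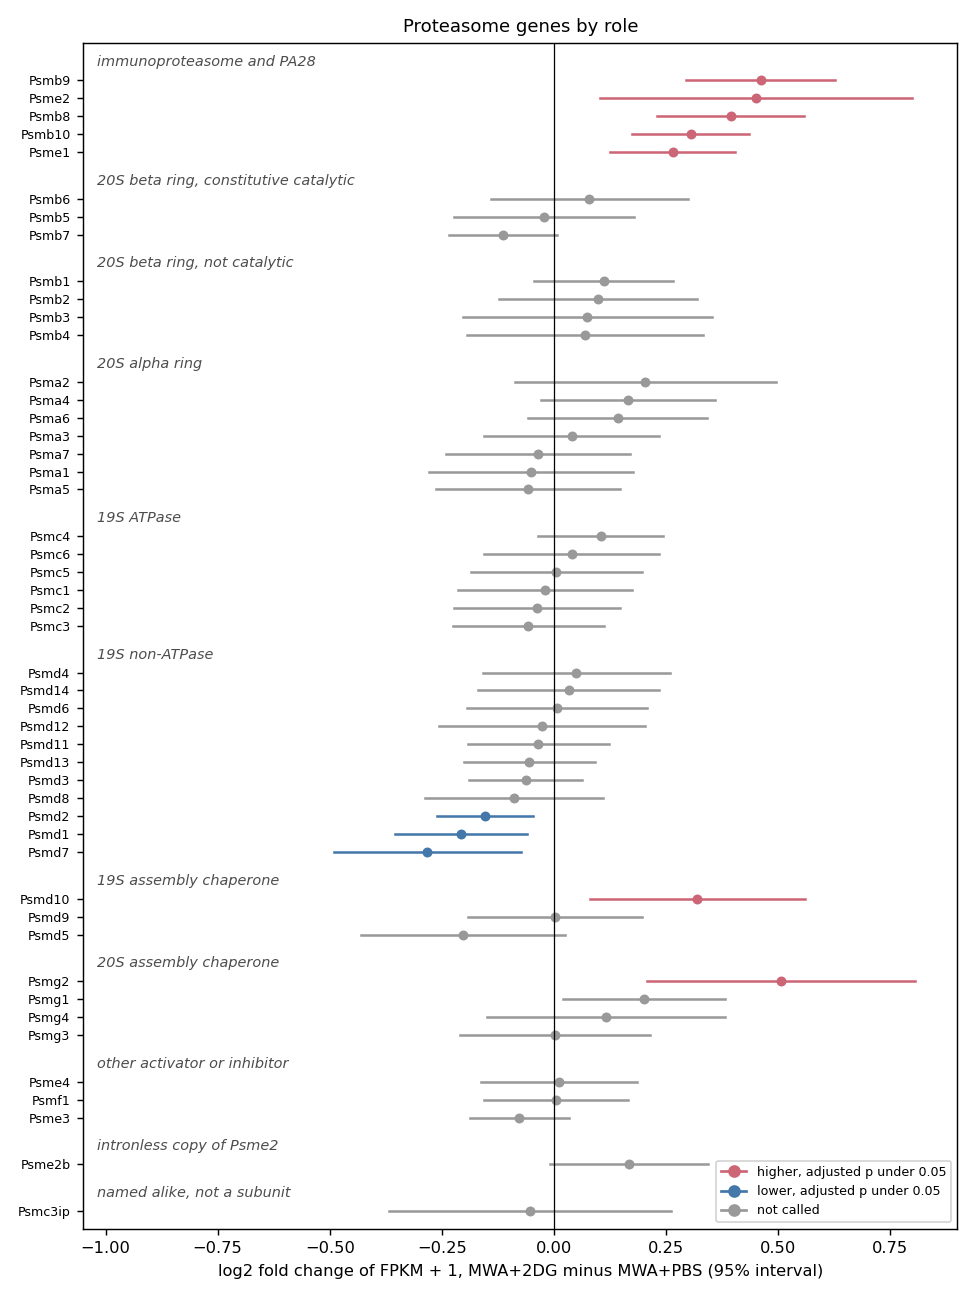
Log2 fold change of FPKM + 1 (MWA+2DG minus MWA+PBS) with its 95% interval for the 48 members, grouped by role. The 5 immunoproteasome and PA28 genes lie to the right of 0 on the scale as deposited (Psmb8, Psmb10, Psme1 and Psmd10 to the left when scaled to T lineage genes), Psmg2 and Psmd10 are the other 2 higher genes, and Psmd7, Psmd1 and Psmd2 of the 19S cap lie to the left.

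No alpha ring gene and no beta gene without a cutting site passed the test. The 4 beta subunits without a cutting site, Psmb1 to Psmb4, had log2 fold changes from 0.07 to 0.11. Psmb1 had the largest, at 17.9, 17.9 and 15.7 FPKM in MWA+PBS and 19.2, 18.2 and 18.4 FPKM in MWA+2DG, groups that were just apart (0.11 ± 0.07, SE by limma, adjusted p = 0.221). Over the fits that each left out 1 sample, Psmb1 ran from 0.051 to 0.14. Psmb3 has 3 near-identical pseudogene copies, and with them summed its log2 fold change was 0.19 ± 0.10 in place of 0.07 (SE by limma, adjusted p = 0.172). The 7 alpha ring genes ranged from -0.06 to 0.20, with 4 above and 3 below 0, and all their groups overlapped. Psma2 stood highest, at 17.4, 19.6 and 14.1 FPKM against 21.3, 17.3 and 20.5 FPKM (0.20 ± 0.12, SE by limma, adjusted p = 0.231), and leaving out MWA+PBS replicate 3 gave 0.082, leaving out replicate 2 gave 0.31. Psma3 shares 665 identical bases with the processed pseudogene Gm13835, which was listed at 17.8 FPKM on average against 9.54 FPKM for Psma3 itself, so the level of Psma3 is uncertain.

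In the 19S cap, the 6 ATPases Psmc1 to Psmc6, the motor that unfolds substrates, had log2 fold changes from -0.06 to 0.10 with none past the test. Psmc4 had the largest, at 25.2, 26.2 and 23.4 FPKM in MWA+PBS and 25.9, 26.9 and 27.8 FPKM in MWA+2DG (0.10 ± 0.06, SE by limma, adjusted p = 0.202). Of the 11 non-ATPase subunits, 3 fell (27.3%, beside 17.1% of all tested genes) and none rose (beside 22.3%). These 3 stayed lower under the T lineage scaling, as they had to, since it lowers every log2 fold change by 0.43. Under it 68.7% of all tested genes were called lower. Psmd7, the lid subunit that pairs with the deubiquitinase Psmd14, measured 29.2, 29.7 and 24.5 FPKM in MWA+PBS and 24.2, 20.7 and 23.0 FPKM in MWA+2DG. The highest MWA+2DG sample lay just below the lowest MWA+PBS sample, at a log2 fold change of -0.28 ± 0.09 (SE by limma, adjusted p = 0.0395). Psmd2, a scaffold of the base that docks ubiquitin shuttles, measured 39.7, 39.5 and 38.3 FPKM against 34.8, 35.4 and 35.0 FPKM, a tight separation of -0.15 ± 0.05 (SE by limma, adjusted p = 0.033). Psmd1, the other large scaffold of the base, measured 11.8, 13.4 and 12.3 FPKM against 10.7, 10.3 and 11.0 FPKM (-0.21 ± 0.06, SE by limma, adjusted p = 0.035). The other 8 subunits, among them the ubiquitin receptor Psmd4, ranged from -0.09 to 0.05.

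These 3 calls were close to the threshold. Leaving out 1 sample at a time, Psmd7 stayed called without MWA+PBS replicate 3 or MWA+2DG replicate 4, Psmd1 without MWA+PBS replicate 1 and Psmd2 without MWA+PBS replicate 2, while the log2 fold changes stayed below 0, from -0.37 to -0.22 for Psmd7, -0.24 to -0.16 for Psmd1 and -0.17 to -0.14 for Psmd2.

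The genes outside the 5 with the largest differences were assembly chaperones, which put the rings together and then leave. Psmg2 encodes a partner of the Psmg1 chaperone that builds the alpha ring, and it measured 7.05, 9.37 and 6.22 FPKM in MWA+PBS and 11.7, 10.5 and 10.9 FPKM in MWA+2DG. All 3 MWA+2DG values were above the MWA+PBS values, and the log2 fold change of 0.51 ± 0.13 was the largest of the 48 (SE by limma, adjusted p = 0.017). Without MWA+PBS replicate 1 or MWA+2DG replicate 4 its adjusted p in limma was 0.0559 or 0.0581, and under the T lineage scaling its log2 difference was 0.080 and did not pass (adjusted p = 0.55). Psmg1 itself was apart between groups, at 6.80, 6.74 and 5.65 FPKM against 7.58, 7.55 and 7.30 FPKM, but did not pass the test (0.20 ± 0.08, SE by limma, adjusted p = 0.0763). Psmd10, known as gankyrin and a chaperone of the 19S base, measured 9.25, 9.69 and 7.52 FPKM against 11.4, 10.1 and 12.1 FPKM, with a log2 fold change of 0.32 ± 0.10 (SE by limma, adjusted p = 0.0419) that turned to -0.11 under the T lineage scaling. Its call held in 2 of the 6 fits that left out a sample, those without MWA+PBS replicate 2 and without MWA+2DG replicate 5. Psmd5 and Psmd9, which chaperone the same base, had log2 fold changes of -0.20 and 0.00 and did not pass.

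On the scale as deposited, none of the other activators and inhibitors passed the test. Psme3, the nuclear PA28 subunit, was the third most abundant of the 48 genes and measured 61.0, 60.0 and 61.0 FPKM in MWA+PBS and 58.3, 58.5 and 55.6 FPKM in MWA+2DG. These groups were apart by a small margin, in the direction opposite to Psme1 and Psme2 on that scale, and did not pass the test (-0.08 ± 0.05, SE by limma, adjusted p = 0.235). The T lineage scaling lowers every log2 fold change by 0.43, and 68.7% of all tested genes were called lower under it. There Psme3 and Psme1 were both called lower, at -0.50 and -0.16, and Psme2 stood at 0.025. Psme4, which encodes the PA200 activator, and Psmf1, the inhibitor PI31, each had a log2 fold change of 0.01. Psmc3ip shares only the start of its name with the ATPases and acts in meiotic recombination, and it measured 1.24, 2.14 and 1.48 FPKM against 1.61, 1.45 and 1.44 FPKM (-0.05 ± 0.13, SE by limma, adjusted p = 0.781).

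Across samples, many of the 43 other members were lowest or highest in the same sample of their group. MWA+PBS replicate 3 was the lowest of its group for 30 of the 43 and MWA+PBS replicate 2 the highest for 30, and MWA+2DG replicate 5 was the lowest of its group for 26. Total FPKM over all genes was likewise highest in MWA+PBS replicate 2 (313257) and lowest in MWA+PBS replicate 3 (300522). In MWA+2DG that total was lowest in replicate 6 (291803) and not in replicate 5 (295930). The share of all genes with these orders was not computed, so whether whole samples shifted was not tested. The median deviation of the 43 members from their mean over all samples ran from -0.09 in MWA+PBS replicate 3 to 0.09 in replicate 2 on the log2 scale. For the 5 induced genes it ran from -0.33 to -0.12 in the MWA+PBS samples and from 0.12 to 0.25 in the MWA+2DG samples. Scaling each sample to the 43 other members, another choice made after the data were seen, left all 5 called higher. It ended the calls of Psmd2 and Cd3e (limma adjusted p = 0.103 and 0.0555). It moved the median of all genes by only -0.0064 on the log2 scale, so the 5 had little room to change.

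Of 39 tested genes that act with the proteasome but bear other names, 12 were higher and 11 lower on the scale as deposited, beside 22.3% and 17.1% of all tested genes, and 3 were higher and 27 lower when scaled to the T lineage genes, which lowers every log2 fold change by 0.43 and under which 68.7% of all tested genes were called lower. Of the 5 interferon factors listed, which act on the induced subunits, 4 were higher. Irf7, an interferon regulatory factor that is itself induced, measured 12.7, 14.0 and 11.7 FPKM in MWA+PBS and 26.1, 20.7 and 25.3 FPKM in MWA+2DG, 1.88-fold higher with the groups well apart (0.85 ± 0.10, SE by limma, adjusted p = 0.000508). Nlrc5, the transactivator of MHC class I genes, rose from 44.5 to 66.5 FPKM (0.57 ± 0.05, SE by limma, adjusted p = 0.000145). Both genes stayed higher under the T lineage scaling, at 0.43 and 0.14. Irf1 and Irf9, partners in the same response, rose by 0.30 each (SE 0.07 and 0.06, limma adjusted p = 0.0151 and 0.00789), and Irf1 lost its call without MWA+PBS replicate 1, MWA+2DG replicate 4 or MWA+2DG replicate 6. Stat2, which acts in a complex with Irf9, had a log2 fold change of 0.14 ± 0.05 that did not pass (SE by limma, adjusted p = 0.0608). Under the T lineage scaling Irf1, Irf9 and Stat2 stood at -0.13, -0.12 and -0.28.

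Of the 9 genes of MHC class I peptide loading, 6 rose and 2 fell, beside 22.3% and 17.1% of all tested genes. Tap1, the neighbour of Psmb9, measured 41.0, 40.6 and 39.0 FPKM in MWA+PBS and 63.9, 58.0 and 63.5 FPKM in MWA+2DG, 1.54-fold higher (0.61 ± 0.06, SE by limma, adjusted p = 0.000175). Tapbpl, a peptide editor, rose from 30.1 to 44.3 FPKM (0.55 ± 0.07, SE by limma, adjusted p = 0.00102), and Tapbp, Erap1, B2m and Tap2 rose by 0.21 to 0.39, each less than the 0.43 that the T lineage scaling takes off. The 2 that fell, Calr at -0.34 and Canx at -0.36, are general chaperones of the endoplasmic reticulum. Tap1 stayed called higher at 0.18 under the T lineage scaling and Tapbpl, at 0.12, did not.

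Of the 25 tested genes outside those 2 lists, 9 fell and 2 rose, beside 17.1% and 22.3% of all tested genes. Of the 3 ubiquitin genes listed, the polyubiquitin gene Ubb fell by 0.47 on the log2 scale and the 2 that fuse ubiquitin to a ribosomal protein did not pass the test. Of the 9 shuttles and unfoldase genes, which bring tagged proteins to the cap, 5 fell and Ufd1 rose, by less than 0.43. The largest fall was that of Ubqln1, at 40.5, 39.9 and 39.5 FPKM against 27.3, 27.6 and 28.7 FPKM (-0.51 ± 0.05, SE by limma, adjusted p = 0.000181). Among the 5 regulators of proteasome genes tested, Nfe2l1, the factor that raises subunit transcription when the proteasome is inhibited, changed by -0.26 and Ddi2, the protease that releases it, by -0.35, while Ngly1, which removes its sugars, rose by 0.30, again less than 0.43. Of 5 subunits and assembly factors whose names fall outside the rule, Akirin2, which carries proteasomes into the nucleus, fell by 0.25 on the log2 scale and none rose. Pomp, the chaperone needed to finish the core and the immunoproteasome in particular, had a log2 fold change of -0.20 ± 0.08 that did not pass (SE by limma, adjusted p = 0.103). None of the 3 deubiquitinase and ligase genes of the proteasome, Uchl5, Usp14 and Ube3c, passed the test.

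**Figure D4:**
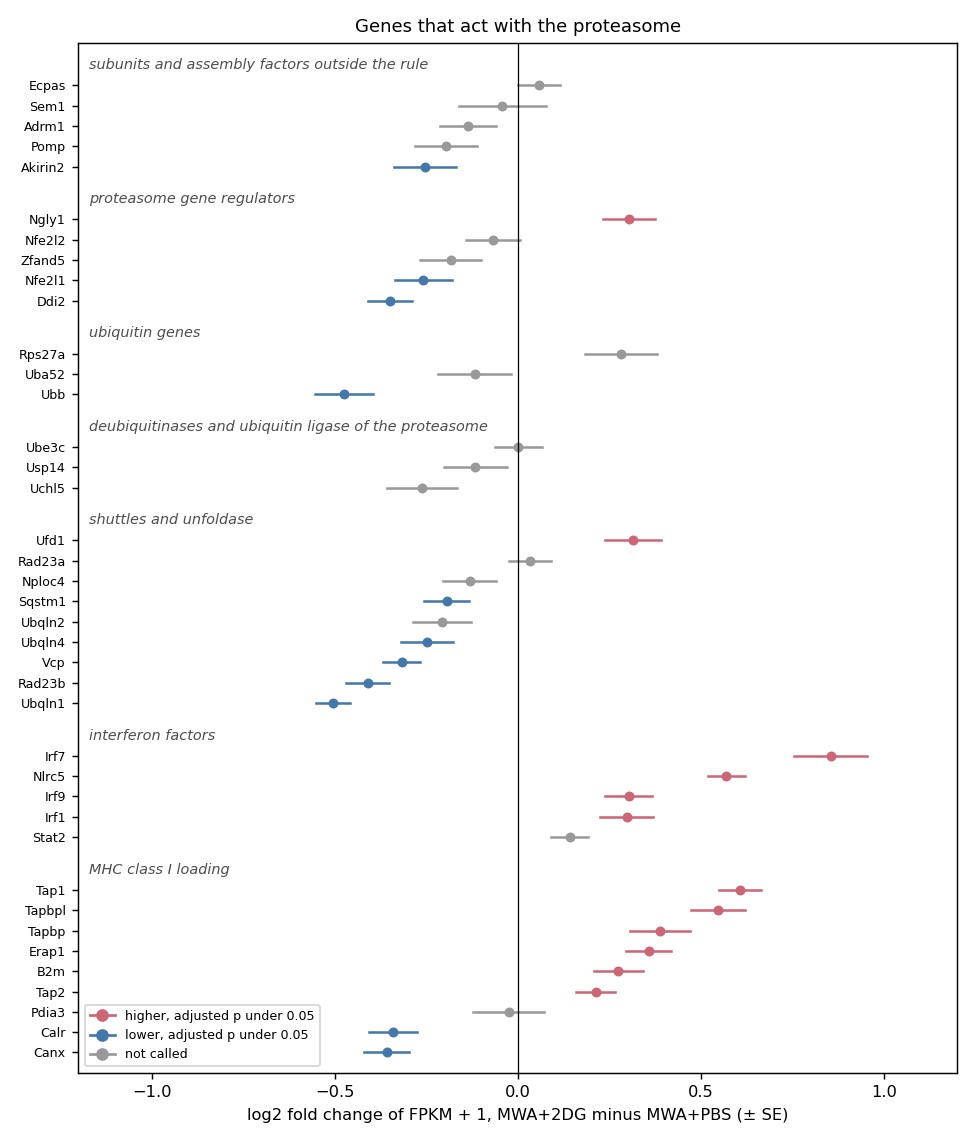
Log2 fold change of FPKM + 1 (MWA+2DG minus MWA+PBS) ± SE for the 39 tested genes that act with the proteasome, grouped by role. Interferon factors and most MHC class I loading genes lie to the right of 0 on the scale as deposited (Irf1, Irf9, Stat2, Tapbp, Erap1, B2m and Tap2 to the left when scaled to T lineage genes), and Ubqln1, at -0.51, lies farthest to the left.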

How the data were processed

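Poly(A) RNA of 3 MWA+PBS and 3 MWA+2DG samples was made into strand-marked libraries with molecular identifiers. The authors mapped reads with HISAT2 and estimated FPKM with StringTie and ballgown, and deposited FPKM per gene with 2 decimals. The submitters' processing notes name cutadapt 1.9, HISAT2 2.0.4, UMI-tools, StringTie 1.3.4d and mm9. The annotation release, and whether strand or identifiers were used, are not given in these sources. Low values did not fall on whole reads, so no count test was possible and the depth is unknown.

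Gene symbols came from GENCODE M21, which named 28689 of 28773 identifiers. Groups came from the labels. log2(FPKM + 1) of genes at a mean of at least 1 FPKM was fitted in limma 3.58.1 (R 4.3.3, lmFit and eBayes with a trend, two-sided), and p-values were adjusted over all 12444 genes. Ratios were tested by exact permutation (scipy 1.17.1). Near-identical copies were found with BLAST 2.17.0 at 95% identity or more over at least 200 bases, within GENCODE transcripts. Promoters are RefSeq windows. The counts, medians, ratios and most named genes were recomputed with another pseudocount, filter, scaling or variance model, and without each sample.

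The members and lists were chosen with earlier results of these data known, and some pathway genes are not reported here. Named with values in every sample were the 5 induced genes and their 3 counterparts. In each other role these were the called members with the highest and the lowest fold change, or the largest fold change where none was called. Outside the rule the genes named, with their values or fold changes, were listed genes at an adjusted p under 0.05 and a log2 fold change beyond 0.5, with the interferon factors, Tap1, Cd8a, Cd8b1, Cd3e and Cd4. Psmd1, Psmg1, Psmd5, Psmd9, the pseudogene copies and the remaining pathway genes were named after their values were seen.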

Additional observations from a re-analysis of the deposited data

How the results depend on the processing

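No paired analysis was possible because the replicate numbers 1 to 3 of MWA+PBS and 4 to 6 of MWA+2DG are not shared. The calls for Psmb8, Psmb9, Psmb10 and Psme1 as higher held under every alternative but the scaling to T lineage genes, which moved the median of all genes by -0.43 and the higher share of called genes from 56.5% to 5.34%, with 68.7% of all tested genes called lower. Under it the log2 differences were -0.031 for Psmb8, 0.036 for Psmb9, -0.12 for Psmb10, -0.16 for Psme1, 0.025 for Psme2, -0.35 for Psmb6, -0.32 for Psmc4, -0.11 for Psmd10, -0.22 for Psma2, -0.31 for Psmb1, -0.26 for Psme2b, -0.28 for Stat2, -0.13 for Irf1, -0.12 for Irf9 and -0.048 for Cd3e. No member was called higher and 41 lower, 0 and 39 by the study's rule, 0 and 1 of the 5 induced genes, 0 and 40 of the other members, and 3 and 27 of the pathway genes. The medians were -0.42 for all members, -0.031 for the 5 genes and -0.42 for the others.

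Without the filter on low values, where more genes were tested, and likewise without the variance trend, 1 member was called lower, and of the other members 1 was higher and 1 lower. Psme2 kept its log2 fold change of 0.45 with an adjusted p of 0.115 and 0.0596 in limma. With sample weights 4 of the other members were higher and Psmc3ip stood at 0.091. Leaving out 1 sample at a time gave 4 to 8 members higher and 0 to 1 lower, 5 to 8 and 0 to 2 by the study's rule, and 0 to 3 and 0 to 1 of the other members, with 7 to 12 of the pathway genes lower. Psme2 ranged from 0.29 to 0.59, Psmb5 from -0.11 to 0.038 and Psmc3ip from -0.16 to 0.084. Without MWA+PBS replicate 1 or MWA+2DG replicate 4 no other member was higher and the count of higher members fell to 4, and without MWA+2DG replicate 5 or 6 none was lower, and 7 pathway genes were lower without MWA+PBS replicate 1 or MWA+2DG replicate 6. Fits without a sample hold fewer samples and the fit without the filter tests more genes, and the causes of these changes were not tested. Depth is unknown, so no floor can be set for low genes.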
